A study of Solanum tuberosum with 6 samples.

Results

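The starch of a potato tuber is built by a small set of enzymes, and the 7 genes described here encode its chain-building, branching and trimming steps: granule-bound starch synthase (GBSS), the soluble starch synthases SS1, SS2 and SS3, the starch branching enzymes SBE1 and SBE2, and the isoamylase ISA1. They were set by gene ID, and the list was drawn up with earlier results of these data known. Of the 7, 6 were found among the 16091 gene IDs of the expression table, and SBE2 was not listed. The series held 6 samples of Solanum tuberosum seed tubers, the tubers kept for planting, all of the cultivar labelled pacific. Of these, 3 were poly(A)-selected RNA libraries, which are used here, and 3 were bisulfite-treated DNA libraries, which were not analysed here. Every sample carried the same tissue and cultivar, and no treatment, time point, age or second genotype was named, so there were no conditions to compare.

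Starch consists of amylose, which is nearly unbranched, and amylopectin, which is branched and makes up most of the granule. Both grow from ADP-glucose, whose glucose unit starch synthases add to the end of a chain. GBSS works inside the granule and makes amylose, and potatoes that lack it have starch almost free of amylose. The soluble synthases lengthen the chains of amylopectin, branching enzymes cut a chain and rejoin it as a branch, and isoamylase removes misplaced branches so that the molecule can crystallise.

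Expression was deposited as 1 FPKM value per row (fragments scaled by gene length and by sequencing depth). The single column names no library, so each level below is the authors' value with no SD and no n, and no difference between genes could be set against a spread between replicates. The table held 16250 rows with a median of 12.2 FPKM and quartiles of 3.37 and 40.1 FPKM, and its lowest row was at 0.500045 FPKM. Genes without a row are outside this median and outside the ranks and percentiles below. The number of fragments behind each value is unknown. The gene names are those given with the list of IDs, since neither the table nor the RefSeq gene list of assembly SolTub_3.0 pairs these IDs with names (0 of 7 matched). For the same reason the tissue label could not be checked against named tuber markers. FPKM divides by length, and on that basis levels of different genes are set side by side here. Whether other differences between genes in how fragments were counted affect these levels was not tested.

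GBSS, the amylose synthase, was the highest of the listed genes. PGSC0003DMG400012111.v4.03 stood at 676 FPKM, rank 316 of 16250 rows, and 98.1% of rows had a lower value. This level was 55.5-fold the median row. It was still far under the top of the table, whose highest row was 272-fold above GBSS. GBSS alone accounted for 67.0% of the FPKM summed over the 6 listed genes.

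The soluble synthases, which extend amylopectin chains, were all far lower, and 2 of the 3 were nearly level with each other. SS3 (PGSC0003DMG400016481.v4.03), described in potato as the main soluble synthase activity of the tuber, was at 45.2 FPKM, rank 3713, with 77.1% of rows lower. SS2 (PGSC0003DMG400001328.v4.03), linked to chains of intermediate length, was at 43.2 FPKM, rank 3850, with 76.3% of rows lower. Only 131 rows lay between them, and SS3 was 1.05-fold above SS2.

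SS1 (PGSC0003DMG402018552.v4.03), linked to the shortest chains, was the lowest of the listed genes. It stood at 12.4 FPKM, rank 8075, where 50.3% of rows were lower, so its level was 1.02-fold the median of the table. SS2 was 3.49-fold and SS3 3.65-fold above it. Of the 101 FPKM summed over the soluble synthases, SS1 held 12.3%, SS2 42.9% and SS3 44.8%. The SS1 level lay among many others, with 666 other rows within 1.1-fold of it.

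The branching step was represented by SBE1 alone. SBE1 (PGSC0003DMG400009981.v4.03) was at 187 FPKM, rank 1138, with 93.0% of rows lower, and was the second highest of the listed genes. It stood 4.14-fold above SS3 and 15.1-fold above SS1, and GBSS was 3.61-fold above it. SBE2 (PGSC0003DMG400002712.v4.03), the other class of branching enzyme, was not listed, and no level is given for it. No other gene model with the 6-digit number of any of the 7 IDs was listed either, and each listed ID had 1 row.

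ISA1 (PGSC0003DMG400020699.v4.03), the isoamylase that trims amylopectin, was at 44.6 FPKM, rank 3762, with 76.8% of rows lower. It fell between SS3 and SS2, at 1.01-fold under SS3 and 1.03-fold above SS2. The order of the listed genes was therefore GBSS, SBE1, SS3, ISA1, SS2 and SS1, over a 54.5-fold range. The positions of SS3, ISA1 and SS2 in that order rest on differences of at most 1.05-fold, which cannot be set against any replicate error.

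**Figure D1:**
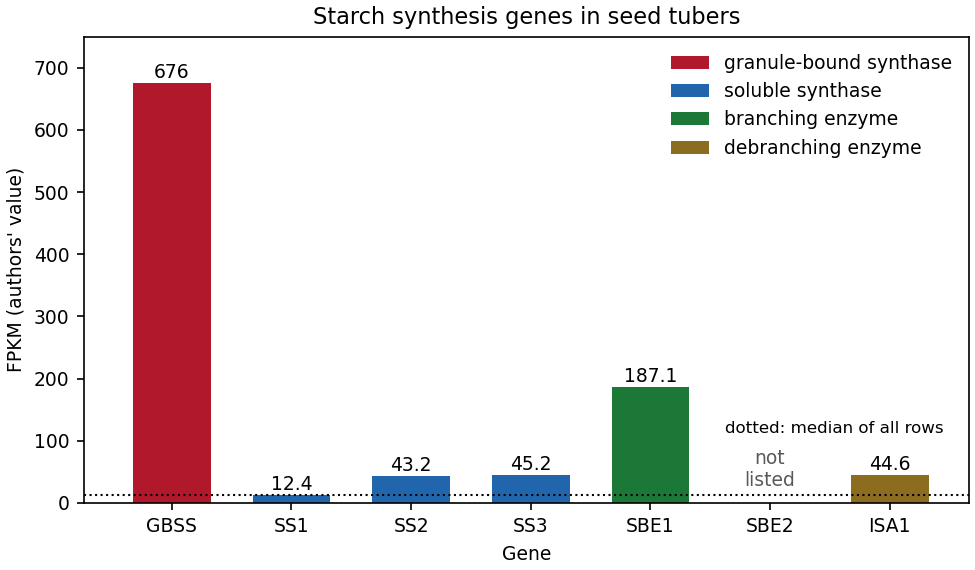
FPKM (authors' values, linear axis from 0) of the 7 genes, coloured by enzyme class, with a dotted line at the median of all rows (12.2 FPKM). GBSS at 676 and SBE1 at 187 FPKM stand above SS2, SS3 and ISA1, which lie between 43.2 and 45.2, while SS1 at 12.4 touches the median line; SBE2 was not listed and has no bar.

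Against the whole table, the listed genes fell into a high pair, a middle trio and a single gene at the median. GBSS and SBE1 were at 100 FPKM or more, as were 12.3% of all rows. At a cut of 200 FPKM SBE1, at 187 FPKM, fell short and only GBSS of the listed genes passed. The share of all rows at that higher cut was not counted. The cut of 200 FPKM lies between SBE1, with 93.0% of rows lower, and GBSS, with 98.1%. Both GBSS and SBE1 lay at or above the 90th percentile (124 FPKM). With SS2, SS3 and ISA1, 5 genes were above the upper quartile of 40.1 FPKM. The median of the 6 listed genes was 44.9 FPKM, beside 12.2 FPKM for all rows. SBE2 is outside these counts, so they describe the listed genes and not the whole set of 7. Together the 6 genes held 0.0576% of the FPKM summed over all rows.

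**Figure D2:**
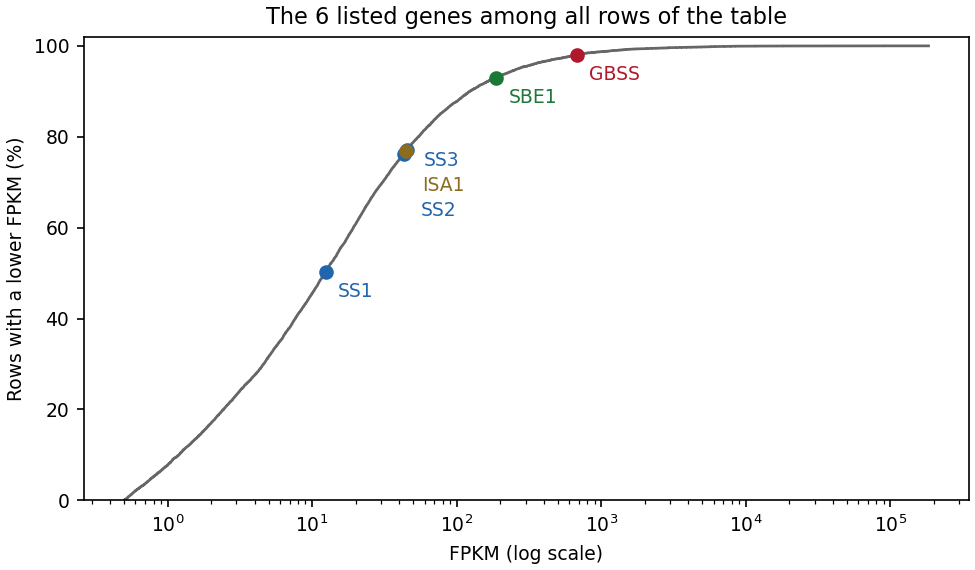
Cumulative distribution of all 16250 rows (grey line; FPKM on a log axis against the percentage of rows with a lower value), with the 6 listed genes as points coloured by enzyme class. SS1 sits in the middle of the curve at 50.3%, SS2, ISA1 and SS3 overlap between 76.3% and 77.1%, and SBE1 and GBSS lie at 93.0% and 98.1%.

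On the transcript level, the amylose synthase stood above the listed amylopectin enzymes combined. GBSS was 6.71-fold the sum of the 3 soluble synthases, and of the FPKM summed over the 4 starch synthases described here it held 87.0%. Single soluble synthases were further away, with GBSS 15.0-fold above SS3, 15.6-fold above SS2 and 54.5-fold above SS1. The ratio to the sum rests mainly on SS2 and SS3, since it was 11.7 without SS2 and 12.2 without SS3, but 7.65 without SS1.

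When the branching and debranching enzymes were added to the amylopectin side, that side came to 332 FPKM over 5 genes, and GBSS was 2.03-fold the sum. SBE1 supplied 56.3% of it, and the ratio was 4.65 without SBE1. SBE1 was also 1.86-fold the sum of the soluble synthases, while GBSS, which also extends chains, was 3.61-fold above SBE1. Since SBE2 is not in the amylopectin sum, the ratio of 2.03 applies to the listed enzymes only. A level of 344 FPKM for SBE2, with 96.0% of rows lower, would have made both sides equal, and the level of SBE2 is unknown. All these ratios are of transcript levels, and neither enzyme amount nor amylose content was measured.

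**Figure D3:**
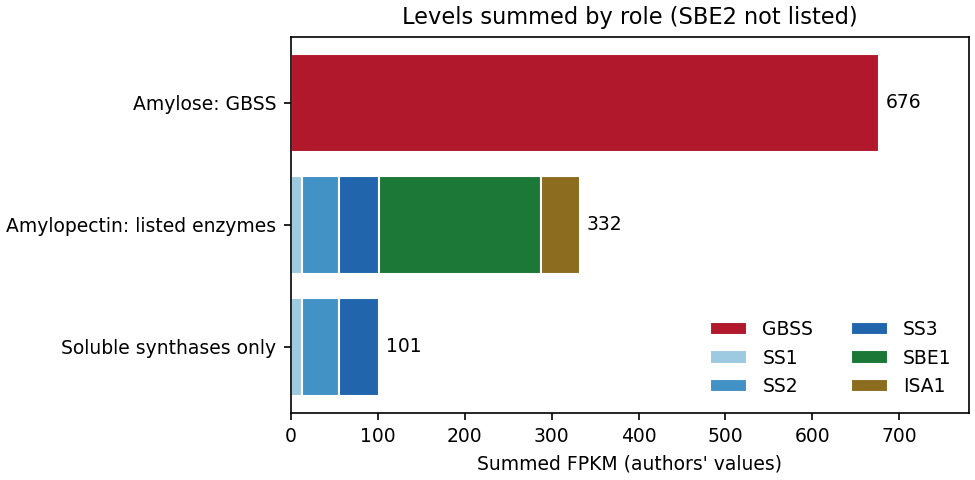
Summed FPKM (authors' values, linear axis from 0) of GBSS, of the 5 listed amylopectin enzymes and of the soluble synthases alone, with 1 coloured segment per gene. GBSS reaches 676 FPKM against 332 for the amylopectin enzymes, most of which is SBE1, and 101 for the soluble synthases; SBE2 was not listed.

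The value of SS3 was printed identically, to all its digits, in 5 other rows of the table. No other listed gene shared its value with another row. Among the 6865 rows from 10 to under 100 FPKM, 8.29% shared a value with another row or with several. How many of these shared it with as many as 5 others was not counted. At 2 times the SS3 value, 90.4072 FPKM, there were 2 rows, and at 3 or 4 times it there were 0. The SS3 value divided by 2, 3 or 4 was held by 0 rows. What produced the repeat in SS3 was not tested, and the level, rank, shares and ratios of SS3 above rest on this repeated value.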

How the data were processed

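Per the labels' protocols, RNA from seed tubers was poly(A)-selected and sequenced as paired-end reads of 150 bp in 3 libraries. TopHat2 2.1.0, a spliced aligner, is named in the submitters' processing notes. No source used here gives the quantifying program or, apart from the version suffix v4.03 of the gene IDs, the genome build. The authors deposited FPKM in 1 column, treated as their value for the RNA group, because the libraries behind it are not named. With no counts, depth and precision are unknown.

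Levels were used as deposited. An ID's rows were to be summed, a rank counts the rows above a value plus 1, and a percentile is the share of rows below it. Sums over a role leave out SBE2, which was not listed. All 7 genes were to be named; no test was made, as there was 1 value per gene and no contrast. The members and ratios were chosen with earlier results of these data known. Further pathway genes were not counted, since the reference used pairs no ID with a name. The arithmetic was checked for ranks on the deposited values with random noise added, and for ratios on made-up values. This does not test the levels themselves. Calculations used Python 3.11.15, NumPy 2.4.6 and pandas 2.3.3, and plots Matplotlib 3.10.9.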

Additional observations from a re-analysis of the deposited data

How the results depend on the processing

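Taking the highest row of each ID could change no ratio, because each listed ID had 1 row. Adding 1 FPKM to each value gave 6.52 for GBSS over the soluble synthases, 2.01 for GBSS over the amylopectin enzymes and 1.81 for SBE1 over the soluble synthases. GBSS over the soluble synthases was 7.65, 11.7 and 12.2 without SS1, SS2 and SS3, 15.0 against the largest alone and 23.4 against their geometric mean. GBSS over the amylopectin enzymes was 2.35 without ISA1 and, chosen after seeing the data, 4.65 without SBE1. The share of the summed FPKM was 0.0643% without the highest row, 0.0190% without GBSS and 0.0469% without SBE1 (also chosen after seeing the data). At 200 FPKM or more 1 gene remained, GBSS, and the share of all rows at that cut was not counted. The number of genes at or above the 90th percentile stayed at 2 in each alternative run, and percentiles moved by at most 4.15 percentage points when only IDs or rows at 1 FPKM or more were ranked. The largest shift was that of SS1, from 50.3% to 46.2% among rows at 1 FPKM or more. These shifts follow from how each alternative is built. The ratio of SBE2 to SBE1 and the omission of either branching enzyme from the ratio of branching enzymes to soluble synthases were not run, nor was the omission of single libraries, for want of an SBE2 value and of values per library. No paired analysis was possible because the table has 1 value column and no result comes from a test.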
